A study of Homo sapiens with 14 samples.

Results

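The 10 keratin genes described here are KRT5, KRT14, KRT15 and KRT17, known as keratins of basal epithelial cells, KRT7, KRT8, KRT18 and KRT19, known as keratins of luminal and other simple epithelial cells, and KRT80 and KRT81, an epithelial and a hair keratin. They were followed through H3K4me2 ChIP-seq, which sequences DNA bound to histone H3 carrying 2 methyl groups on lysine 4, a mark of promoters and enhancers. A region of the deposited count table was given to a gene when it overlapped the gene's RefSeq span on hg38 or lay within 5 kb of it. This gave 12 of the table's 54942 regions, and they belong to 7 of the 10 genes. By the same rule 15856 of 19974 protein-coding genes had a region. KRT5, KRT14 and KRT17 had no region within 5 kb.

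The libraries came from MDA-MB-231, an established human cell line that the labels class as triple negative breast cancer. All 6 libraries are of this 1 line, grown in medium with fetal bovine serum. The 3 control libraries came from cells given the solvent DMSO, and the 3 treated libraries from cells given OICR-9429, a small molecule that binds WDR5, a subunit of H3K4 methyltransferase complexes, and blocks its contact with MLL1. Treatment lasted 24 to 96 hours, with no time given for a single library, and Drosophila chromatin equal to 5% was added to each ChIP as a spike-in. The labels call the libraries biological replicates and do not say whether they were separate cultures, so p-values measure the spread between these libraries. Input libraries and an untreated ChIP library were not analysed here.

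Keratins are the intermediate filament proteins of epithelial cells. A filament is built from pairs of 1 type I and 1 type II chain. Type I genes lie together on chromosome 17, except KRT18, and type II genes on chromosome 12. KRT8 and KRT18 are the usual pair of simple epithelia, with KRT7 and KRT19 added in ducts and glands. KRT5 and KRT14 are the pair of basal cells, where KRT15 and KRT17 are also made. In breast tissue these sets are used to tell luminal from basal cells. H3K4me2 at a gene is a chromatin measurement and not a measure of its RNA or protein.

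The levels below are normalised CPM, which are read counts relative to the TMM-scaled size of the library. A value with ± is a mean with the SD over 3 libraries. Levels between regions are compared only as normalised CPM per kb of region. The libraries held 16483098 to 23509413 counts. The member regions took 0.0579% to 0.0620% of these in the DMSO libraries and 0.0594% to 0.0620% in the OICR-9429 libraries. Marker genes were read by their region with the highest mean count. All 6 markers of MDA-MB-231 on the list (VIM, ZEB1, CD44, AXL, EGFR and CAV1) had a region. Their levels were 6.36 to 12.4 normalised CPM per kb in DMSO. ESR1, PGR and ERBB2, whose products are low in triple negative tumours, had 11, 2 and 3 regions. Read in the same way, they stood at 9.12 to 13.1 normalised CPM per kb. The mark therefore did not set the line's markers apart from them. Of the markers of other cell types, 5 of 6 fibroblast genes, 3 of 5 leukocyte genes and 4 of 4 endothelial genes had a region. Of these, 2 fibroblast genes and 1 endothelial gene were called lower in OICR-9429, and none was called higher. Among the 6 markers of the line 4 were called higher and 0 lower, and ERBB2 was also called higher. Taking each gene's region with the highest mean count, 51.4% of all protein-coding genes were called higher and 2.61% lower. The leukocyte gene PTPRC was at 0 counts in every DMSO library. Summed over each list, fibroblast markers held 90.9 to 104 normalised CPM in DMSO and 82.7 to 93.5 in OICR-9429, leukocyte markers 29.9 to 39.3 and 21.3 to 32.0, and endothelial markers 125 to 137 and 130 to 143. The part of these genes in the keratin results was not tested.

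Promoter sequences are shown where the RefSeq table of GRCh38.p14 (the build hg38) holds a window of 300 bases, from 250 before to 50 after a gene's start. Only 2 of the 10 members, KRT8 and KRT5, had one. They show sequence inside and outside the mark in the same cluster on chromosome 12, both on the minus strand. The KRT8 window, chr12:52926420-52926719, lies inside an H3K4me2 region, and the KRT5 window, chr12:52520345-52520644, lies in none. The KRT5 window is at the end of the gene's span, whereas the KRT8 window is at a start well inside the span, whose ends are covered by other regions, so the pair does not compare like starts. Capitals mark CG dinucleotides, of which the KRT8 window holds 2 and the KRT5 window 7.
KRT8: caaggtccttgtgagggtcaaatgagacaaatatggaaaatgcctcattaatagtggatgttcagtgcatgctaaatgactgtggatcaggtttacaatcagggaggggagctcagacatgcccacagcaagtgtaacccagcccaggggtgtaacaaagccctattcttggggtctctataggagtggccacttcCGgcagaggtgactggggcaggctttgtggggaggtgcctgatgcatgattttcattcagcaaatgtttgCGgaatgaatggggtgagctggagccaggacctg
KRT5: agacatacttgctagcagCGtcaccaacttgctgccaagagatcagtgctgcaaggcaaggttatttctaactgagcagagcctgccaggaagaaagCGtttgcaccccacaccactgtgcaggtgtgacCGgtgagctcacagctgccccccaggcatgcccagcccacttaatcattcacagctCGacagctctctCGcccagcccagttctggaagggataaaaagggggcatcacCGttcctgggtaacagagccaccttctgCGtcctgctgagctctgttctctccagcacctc

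KRT7-AS and KRT86-AS2, which are noncoding genes, start inside member regions and are shown because their windows give the sequence under those regions. KRT7-AS, an antisense RNA of KRT7, has its window at chr12:52247399-52247698 on the minus strand, with 6 CG dinucleotides. KRT86-AS2, beside KRT81, has its window at chr12:52279107-52279406 on the minus strand, with 18. Capitals again mark CG.
KRT7-AS: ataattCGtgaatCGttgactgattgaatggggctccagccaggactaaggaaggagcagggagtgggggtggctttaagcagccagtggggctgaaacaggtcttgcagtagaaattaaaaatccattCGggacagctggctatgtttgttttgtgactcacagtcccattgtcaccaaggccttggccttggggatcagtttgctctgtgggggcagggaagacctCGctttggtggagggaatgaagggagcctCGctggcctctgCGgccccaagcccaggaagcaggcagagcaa
KRT86-AS2: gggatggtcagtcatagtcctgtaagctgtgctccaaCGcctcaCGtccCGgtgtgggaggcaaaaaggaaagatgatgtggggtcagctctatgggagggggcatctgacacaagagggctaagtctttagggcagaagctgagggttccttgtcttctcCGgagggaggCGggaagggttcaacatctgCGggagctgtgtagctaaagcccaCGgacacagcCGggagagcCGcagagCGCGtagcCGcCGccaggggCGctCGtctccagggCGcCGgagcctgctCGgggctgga

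Among all 34961 promoter windows of the table on chromosomes 1 to 22 and X, 51.7% touched a region. The median was 25 CG dinucleotides in windows that touched a region and 4 in those that did not. Of the 38 windows of protein-coding keratin genes, from 34 genes, 2.6% touched a region, and the single one was the KRT8 window above. The table has no window for KRT7, KRT18, KRT19, KRT80 or KRT81, whose spans carry regions, so this share leaves out the marked members other than KRT8 and is not the share of marked keratin genes. The median keratin window held 2 CG dinucleotides, against 14 for all windows. Among windows with no more CG than the KRT5 window, 15.6% touched a region, so the KRT5 window shares its lack of a region with most windows of such sequence. The letters TATAAA, searched on both strands, were in 55.3% of keratin windows and 11.5% of all windows, and in neither member window. GGGCGG, also on both strands, was in 15.8% of keratin windows and 45.0% of all windows, and again in neither member window. These are matches of letters in 300 bases and not sites.

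Among the 12 member regions, the 4 highest levels per kb were at luminal keratins, the first of them shared with the basal keratin KRT15. The region with the highest level covered the whole of KRT19 (chr17:41520927-41531348, 10422 bp), at 11.8 ± 1.48 normalised CPM per kb in DMSO (SD, n = 3). It was above 93.8% of all tested regions. The same region lies 2037 bp from KRT15, which has no region on its own span, so KRT15 and KRT19 have the same values throughout. The next 2 levels were those of the KRT8/KRT18 region (chr12:52945179-52952894), at 8.20 ± 1.13, and of the middle KRT8 region (chr12:52923839-52928499), which holds the KRT8 window printed above, at 8.08 ± 0.897 normalised CPM per kb. These 2 overlapped over libraries, while the KRT19 region stood above both in every DMSO library.

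KRT7 carried 2 regions, which together covered 70.5% of its span. The lower one (chr12:52228949-52239804, over the end of KRT7 with the lower coordinates and a pseudogene, TMT1AP1) stood at 7.29 ± 0.952 normalised CPM per kb, and the inner one (chr12:52241258-52250644, with KRT7-AS inside it) at 4.54 ± 0.268. KRT8 also had a region over its lower end (chr12:52895188-52909098, 13911 bp), at 5.26 ± 0.376. The 3 regions covered 40.3% of the KRT8 span, which is 52670 bp in this annotation. The KRT8/KRT18 region covered 99.7% of KRT18 and so cannot be divided between the 2 genes.

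KRT81 had a region over its lower end (chr12:52285440-52288992, called the KRT81 span region) at 4.03 ± 0.131 normalised CPM per kb and a region 2965 bp away (chr12:52278365-52282948, the KRT81 flank region) at 6.74 ± 0.218. Both also lie in the span of KRT86, another hair keratin, and the counts cannot be divided between these genes. KRT80 had 4 regions. The broad one (chr12:52178885-52194782) was 15898 bp wide, wider than 99.4% of tested regions, at 5.72 ± 0.578 normalised CPM per kb. A region 3576 bp outside the gene (chr12:52163763-52165420, the KRT80 distal region) stood at 5.72 ± 0.241. The other 2, inside the gene, were close to empty, with 9 to 23 counts per library.

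Ordered by level per kb in DMSO, the 12 regions fell into several runs. The KRT19 region stood alone at the top. The KRT8/KRT18, middle KRT8, lower KRT7 and KRT81 flank regions followed, and each overlapped its neighbour in this order over libraries. The KRT80 broad, KRT80 distal and lower KRT8 regions formed the next run of overlapping neighbours. The inner KRT7 region and the KRT81 span region came below, each apart from its neighbours, and the 2 inner KRT80 regions were last. The median member region was above 35.6% of all tested regions per kb, and the members were wide, with a median width of 6188.5 bp against 1661 bp for all tested regions. Not divided by width, the members' median CPM was above 88.65% of regions.

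**Figure D1:**
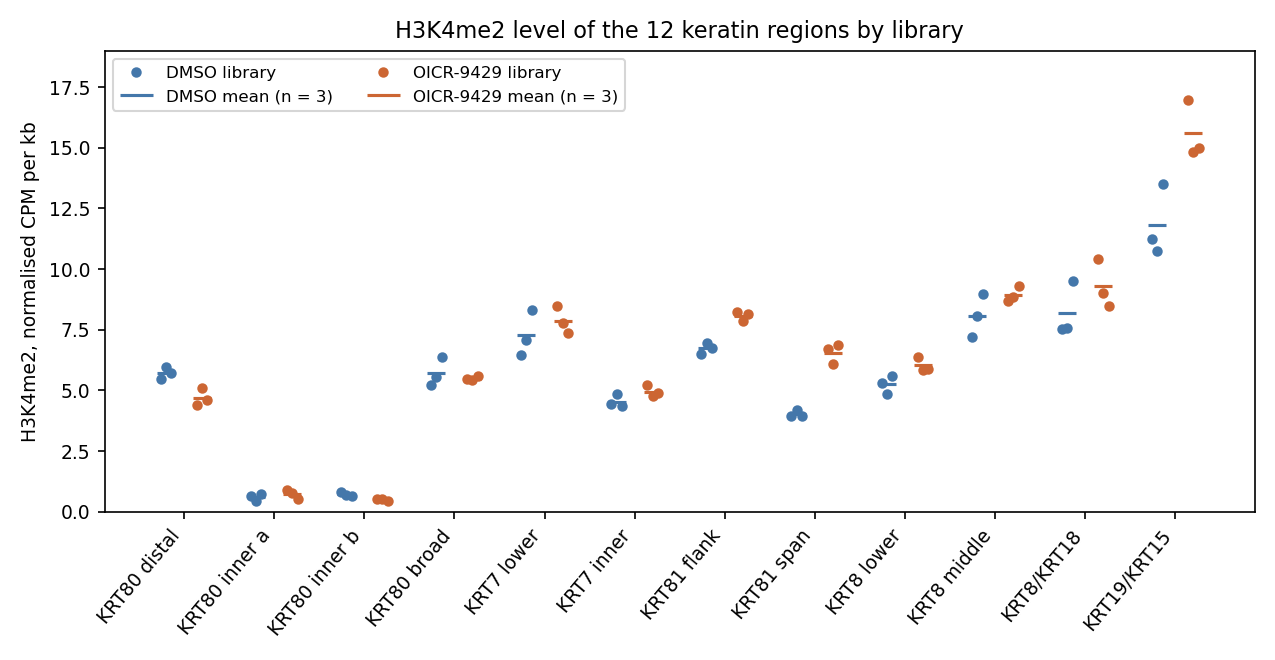
H3K4me2 level (normalised CPM per kb, y axis) of the 12 member regions (x axis, in genome order) in each of the 3 DMSO and 3 OICR-9429 libraries, with group means as lines. Every OICR-9429 library is above every DMSO library at the KRT81 span, KRT81 flank, lower KRT8 and KRT19/KRT15 regions. The reverse holds at the KRT80 distal region and 1 inner KRT80 region. Over all tested regions 24.8% are higher without overlap and 21.5% lower. The 2 inner KRT80 regions lie below 1 normalised CPM per kb.

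KRT5, KRT14 and KRT17 were without a region. The nearest region to KRT5 was 186491 bp away. KRT14, the partner of KRT5, was 25555 bp from its nearest region, and KRT17, a keratin of basal and injured epithelium, was 6095 bp from the same one, a small region at KRT16 (chr17:41612450-41613347). That region held 8.84 ± 0.793 normalised CPM in DMSO and 9.18 ± 1.34 in OICR-9429, with overlapping groups (log2 change 0.06, adjusted p = 0.791 by edgeR). KRT15 had only the region it shares with KRT19. With a distance of 10 kb in place of 5 kb, the members had 15 regions and 8 genes had one, KRT17 being the gene added. With overlap of the span alone there were 10 regions and 6 genes, and KRT15 was lost. A gene without a region had no peak in the authors' set, and the count table gives no value there.

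To ask what OICR-9429 did at these genes, the 3 treated libraries were compared with the 3 DMSO libraries by edgeR's quasi-likelihood test over all 51156 tested regions, with Benjamini-Hochberg adjustment. All 12 member regions passed the count filter. H3K4me2 was higher at 2 of them, the KRT81 span region and the KRT19/KRT15 region. No member region was called lower, and 10 did not pass the test. Over all tested regions 17.0% were called higher and 14.0% lower. At an unadjusted p under 0.05, 3 members were higher and 0 lower, but the share of all regions at that threshold was not taken. DESeq2's Wald test called 2 members higher and 0 lower, beside 7162 higher and 6523 lower over all regions. Spike-in factors were not used, so every change is relative to the other regions.

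The KRT81 span region had 14.0, 14.9 and 14.1 normalised CPM in the DMSO libraries and 23.9, 21.6 and 24.4 in the OICR-9429 libraries. The treated libraries were all above the controls, with a wide gap between the groups and little spread in either. KRT81 is a type II keratin of the hair cortex. The region rose from 14.3 ± 0.467 to 23.3 ± 1.49 normalised CPM, a log2 change of 0.70 (SE 0.12, adjusted p = 0.00223, edgeR). The call was the same under all 13 alternatives tried, with log2 changes of 0.50 to 0.75 and adjusted p from 0.000211 to 0.0216.

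The KRT81 flank region, next to it, had 29.8, 31.8 and 31.0 normalised CPM in DMSO and 37.7, 36.1 and 37.4 in OICR-9429. Its groups did not overlap either, but the difference was smaller. The log2 change was 0.26 (SE 0.12) with an adjusted p of 0.0969, so it did not pass. The ratio of the 2 regions' counts in a library needs no scaling between libraries. Span over flank was 0.469, 0.467 and 0.455 in DMSO and 0.633, 0.599 and 0.653 in OICR-9429, a mean of 0.464 ± 0.00746 against 0.628 ± 0.0274. The 2 neighbouring regions therefore changed unequally, by 1.35-fold. The share of other region pairs whose ratios separate in this way was not taken.

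Farther along KRT86, 13104 bp from KRT81, a small region (chr12:52304638-52305662) fell. It had 4.99, 5.57 and 4.23 normalised CPM in DMSO and 3.05, 3.85 and 1.94 in OICR-9429 (log2 change -0.73, SE 0.22, adjusted p = 0.0245, edgeR). The call was lost with loess offsets (-0.46, adjusted p = 0.170) and without DMSO replicate 1 (adjusted p = 0.0591) or DMSO replicate 2 (0.0987). Leaving out OICR-9429 replicate 3 (0.0674) ended it too. The last region of KRT86, which also lies near the hair keratin KRT83, went from 15.5 to 17.8 normalised CPM with overlapping groups (log2 change 0.20, adjusted p = 0.294). Among the 4 regions of KRT86, therefore, 1 region rose, 1 fell and 2 did not pass.

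**Figure D2:**
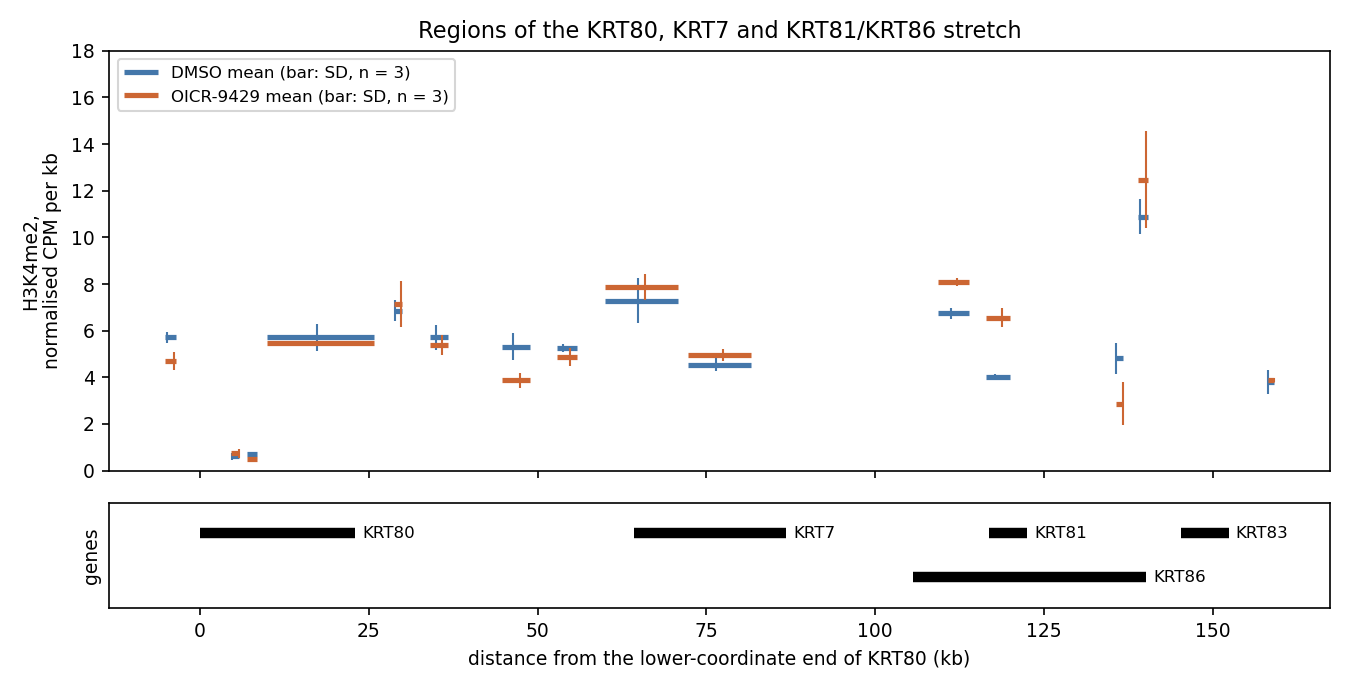
H3K4me2 (normalised CPM per kb, y axis) in the regions between KRT80 and KRT83 against distance in kb from the lower-coordinate end of KRT80. Horizontal bars span each region at the mean of 3 libraries, vertical bars are the SD, and the lower panel draws the gene spans. The groups are farthest apart at the KRT81 span region, while the broad KRT80 bars lie close together.

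The KRT19/KRT15 region had 117.3, 111.9 and 140.8 normalised CPM in DMSO and 176.9, 154.5 and 156.4 in OICR-9429. The treated libraries were all above the controls, with DMSO replicate 3 the nearest to them. KRT19 is a small type I keratin of simple epithelia. The region rose from 123 ± 15.4 to 163 ± 12.4 normalised CPM, a log2 change of 0.40 (SE 0.12, adjusted p = 0.0226, edgeR). The call was lost with library totals as the scaling (0.20, adjusted p = 0.0582) and with loess offsets, which remove each library's trend of log count on mean abundance (0.06, adjusted p = 0.496). Leaving out DMSO replicate 1 (adjusted p = 0.148) or DMSO replicate 2 (0.127) also ended the call. So did leaving out OICR-9429 replicate 1 (0.0679) or its replicate 2 (0.051). The ratio of its counts to those of the KRT8/KRT18 region, free of scaling, was 2.02, 1.92 and 1.92 in DMSO and 2.20, 2.22 and 2.39 in OICR-9429. These groups did not overlap, and each treated ratio was above each control ratio. The share of other region pairs whose ratios separate in this way was not taken.

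KRT8 and KRT18, the pair of simple epithelia, did not pass in any of their 3 regions. The KRT8/KRT18 region had 58.2, 58.3 and 73.4 normalised CPM in DMSO and 80.3, 69.5 and 65.5 in OICR-9429. DMSO replicate 3 lay among the treated libraries, and the groups overlapped. The log2 change was 0.18 (SE 0.13, adjusted p = 0.297), and without DMSO replicate 3 it was 0.30 (adjusted p = 0.0484), past the threshold. The middle KRT8 region had 33.5, 37.6 and 41.9 in DMSO and 40.4, 41.2 and 43.3 in OICR-9429 (log2 change 0.14, adjusted p = 0.392), also with overlap. The lower KRT8 region had 73.8, 67.7 and 78.1 in DMSO and 89.0, 81.1 and 82.1 in OICR-9429. There the groups were apart, but the log2 change of 0.20 (SE 0.11) had an adjusted p of 0.189.

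KRT7, a type II keratin of ducts and glands, did not pass in either region. The lower KRT7 region had 70.1, 76.8 and 90.4 normalised CPM in DMSO and 92.2, 84.3 and 80.2 in OICR-9429. The highest control lay above 2 of the 3 treated libraries. The log2 change was 0.11 (SE 0.12, adjusted p = 0.504), and it turned below 0 with library totals (-0.08) and loess offsets (-0.22). The inner KRT7 region had 41.6, 45.5 and 40.8 in DMSO and 49.0, 44.6 and 46.0 in OICR-9429 (log2 change 0.13, adjusted p = 0.427). Its sign turned in the same 2 settings (-0.08 and -0.20).

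KRT80, a type II keratin of differentiating epithelium, had all 3 of the member regions with a log2 change below 0 under TMM. The broad region had 83.4, 88.3 and 101.2 normalised CPM in DMSO and 86.7, 86.5 and 88.7 in OICR-9429. The groups overlapped, and only DMSO replicate 3 stood away from the rest. The log2 change was -0.06 (SE 0.12, adjusted p = 0.720). With library totals it was -0.26 (adjusted p = 0.0269) and with loess offsets -0.39 (adjusted p = 0.00598), both past the threshold, while without DMSO replicate 3 it was 0.02. The count ratio of this region to the lower KRT7 region was 1.19, 1.15 and 1.12 in DMSO and 0.940, 1.03 and 1.11 in OICR-9429, so the groups were just apart. Here too the share over other region pairs was not taken.

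The KRT80 distal region had 9.07, 9.87 and 9.49 normalised CPM in DMSO and 7.28, 8.49 and 7.63 in OICR-9429. Every treated library was below every control. The log2 change was -0.28 (SE 0.14, adjusted p = 0.139), and with library totals -0.48 (adjusted p = 0.0366), past the threshold. The near-empty inner region at chr12:52176025-52177511 had counts of 23, 19 and 18 in DMSO and 17, 14 and 10 in OICR-9429, with the groups apart after scaling (log2 change -0.51, SE 0.29, adjusted p = 0.180). The other (chr12:52173659-52174746) had 13, 9 and 15 against 21, 15 and 9, which overlapped (log2 change 0.31, SE 0.33, adjusted p = 0.497). Neither passed, and both standard errors were above that of the broad region (0.12).

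Just outside the 5 kb limit lay a region 5682 bp from KRT80, at 8.60 ± 0.570 normalised CPM in DMSO and 8.96 ± 1.25 in OICR-9429. The members just inside the limit were those at 3576, 2965 and 2037 bp, described above. Between KRT80 and KRT7, a region near neither (chr12:52213756-52217912) fell from 22.0 ± 2.41 to 16.1 ± 1.31 normalised CPM (log2 change -0.45, adjusted p = 0.0213, edgeR). Over all tested regions 14.0% were called lower, and the values of this region under other settings were not taken.

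Over the 12 regions, groups did not overlap at 6, with OICR-9429 higher at 4 and lower at 2. Over all tested regions, 24.8% were higher without overlap and 21.5% lower. DMSO replicate 3 was the highest control at 7 of the 12 member regions, and OICR-9429 replicate 1, the deepest library, the highest treated one at 8. Their part in the results was not tested beyond leaving each out.

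How the members stood against other regions depended on the scaling. Under TMM the median log2 change was 0.16 for the members and 0.03 for all tested regions, and 9 of 12 members were above 0. With library totals the median of all regions moved to -0.17 and that of the members to -0.03, with 5 members above 0. With loess offsets it was 0.02 for all regions and -0.15 for the members, with 3 members above 0. The calls over all regions moved too, from 8709 higher and 7179 lower under TMM to 3301 and 11984 with library totals and 2761 and 4445 with loess offsets. With loess offsets 5.40% of regions were called higher and 8.69% lower, and of the members the KRT81 span region was called higher and the KRT80 broad region lower.

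The 5 members with the most reads (KRT80 broad, lower KRT7, lower KRT8, KRT8/KRT18 and KRT19/KRT15) were in the highest decile of regions by mean count. Regions of that decile had a median log2 change of 0.37 under TMM, and 55.3% of them were called higher and 1.25% lower. Of the 5 keratin regions 1 was called higher and 0 lower. With loess offsets the median of that decile was 0.04, with 6.02% called higher and 11.0% lower. Across the 4 scalings, 3 member regions (KRT81 span, KRT19/KRT15 and 1 inner KRT80 region) were above 0 in each, 3 KRT80 regions were below 0 in each, and the other 6 changed sign.

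**Figure D3:**
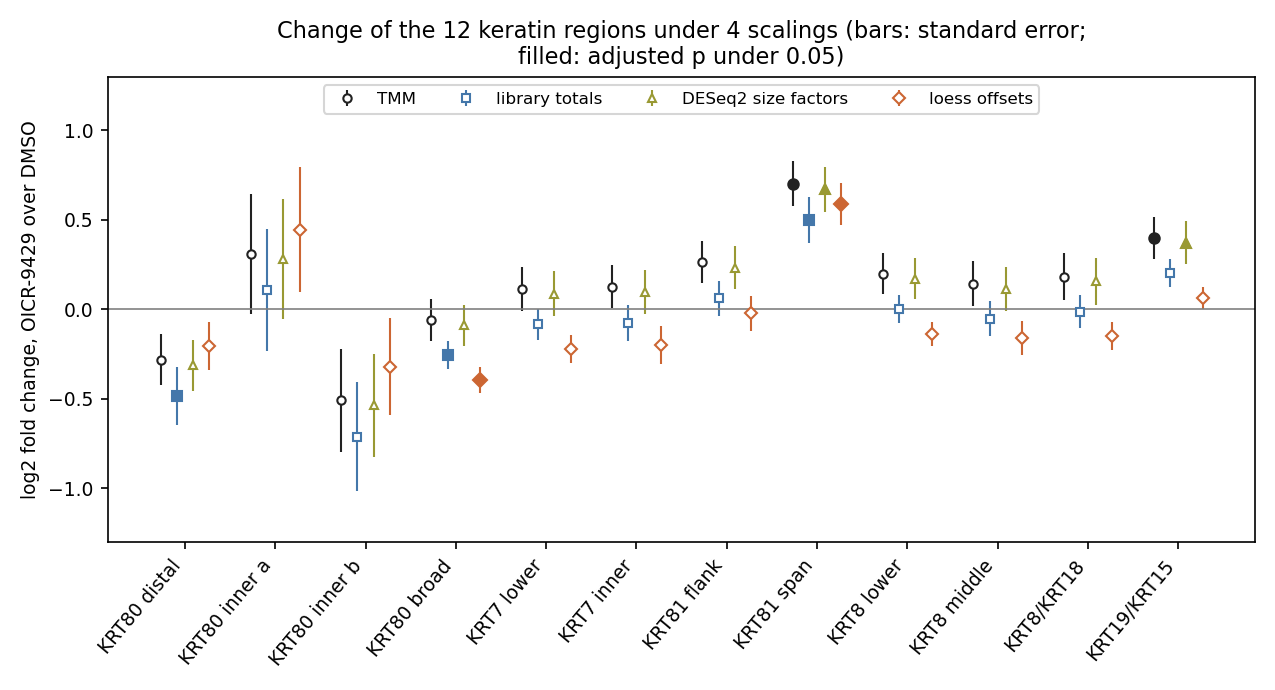
The log2 fold change of OICR-9429 over DMSO (y axis) for the 12 member regions (x axis) under 4 scalings, with bars for the standard error and filled points for an adjusted p under 0.05. The KRT81 span region is filled in all 4, the KRT19/KRT15 region in 2, and the KRT80 broad region only with library totals and loess offsets, below 0. The KRT80 distal region is filled only with library totals, also below 0.

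Counts were also summed over all regions of a gene. By this measure 48.9% of 15459 genes were called higher and 3.11% lower. The 2 regions summed for KRT81 also lie in the span of KRT86. The flank region, outside KRT81, held 30.9 normalised CPM of the sum in DMSO. The KRT81 sum rose from 45.2 ± 1.43 to 60.4 ± 2.32 normalised CPM (log2 change 0.42, SE 0.11, adjusted p = 0.0115, edgeR). This call was lost with library totals (adjusted p = 0.0688), loess offsets (0.588), without DMSO replicate 1 (0.105) and without DMSO replicate 2 (0.0895). KRT19 and KRT15, with the region they share, rose by 0.40 (adjusted p = 0.0141). That call was lost with library totals (adjusted p = 0.0582), loess offsets (0.212), and without DMSO replicate 1 (0.115), DMSO replicate 2 (0.123) or the first OICR-9429 replicate (0.0613). KRT7 went from 122 ± 9.74 to 132 ± 8.02 (log2 change 0.12, adjusted p = 0.337), KRT8 from 174 ± 16.7 to 197 ± 10.6 (0.18, adjusted p = 0.131) and KRT80 from 102 ± 9.29 to 96.7 ± 0.879 (-0.08, adjusted p = 0.521), none of them passing. Without DMSO replicate 3, KRT8 (0.26, adjusted p = 0.0144) and KRT18 (0.30, adjusted p = 0.0182) passed. KRT80 passed as lower with library totals (-0.28, adjusted p = 0.0233) and loess offsets (-0.39, adjusted p = 0.00984).

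Other genes of the same cytoskeleton were followed by their region with the highest mean count. By this measure 51.4% of 15448 protein-coding genes passed as higher and 2.61% as lower, and the median log2 change was 0.37. The members had a median of 0.20, with 2 of 7 genes higher (KRT19 and KRT15, through 1 region) and 0 lower. For KRT81 this measure takes the flank region.

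Of the 45 other keratins, 11 had a region and 8 were tested. None of the 8 was called higher or lower by edgeR, and the median log2 change was 0.13. Their strongest regions lay in deciles 4 to 9 of mean count, below the highest decile. At an unadjusted p under 0.05, 1 was higher and 0 lower, and DESeq2 called 0 in each direction. The share of all genes was not taken for these 2 measures. The 1 was KRT86, whose strongest region is the KRT81 flank region already described. Small regions at some of these genes stood high per kb in DMSO, such as KRT13 at 12.6 and KRT83 at 10.9 normalised CPM per kb, against 11.8 for the KRT19 region. KRT13, a keratin of stratified mucosa, had 12.5 ± 1.20 normalised CPM in DMSO and 10.0 ± 1.77 in OICR-9429 (log2 change -0.31, adjusted p = 0.131). It passed as lower with library totals (-0.52, adjusted p = 0.0338) and without OICR-9429 replicate 1 (-0.49, adjusted p = 0.0201), and was -0.18 without OICR-9429 replicate 3. KRT10, of differentiated epidermis, had 27.2 and 32.1 (0.24, adjusted p = 0.197). KRT6A, a keratin of injured and hyperproliferative epithelium, had no region. The regions at KRT23 and KRT39 held 0 counts in all 6 libraries, as did 843 regions of the whole table.

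Keratin filaments are anchored at desmosomes and hemidesmosomes, in part by plakins and plakophilins. The list of 24 genes of these junctions also holds the hemidesmosome genes ITGA6, ITGB4 and COL17A1, and PERP, TCHP and the cytoskeletal linker MACF1. Of the 24 genes 21 had a region, and 6 passed as higher and 0 as lower. The list's median log2 change was 0.25. PLEC, which codes for the linker plectin, rose from 519 ± 97.7 to 699 ± 78.3 normalised CPM (log2 change 0.43, SE 0.13, adjusted p = 0.0230, edgeR). PKP2 and PKP3, both plakophilins, rose from 73.9 to 95.8 (0.37, adjusted p = 0.0255) and from 63.1 to 83.1 (0.40, adjusted p = 0.0330). TCHP, whose product binds keratin filaments, rose from 53.0 to 69.0 (0.38, adjusted p = 0.0371). The share called, 6 of 21, was below that of all genes, and with loess offsets 0 of the list were called higher and 1 lower. The share of all genes by this measure with loess offsets was not taken. Of 13 alternatives, PLEC lost its call in 3, PKP2 in 6, PKP3 in 8 and TCHP in 10, and all 4 lost it with loess offsets. Without DMSO replicate 1 the adjusted p was 0.122 for PLEC, 0.165 for PKP2, 0.226 for PKP3 and 0.160 for TCHP. Without DMSO replicate 2 it was 0.154, 0.131, 0.167 and 0.212. Library totals ended the calls of PKP2 (0.0946), PKP3 (0.0968) and TCHP (0.132). Without OICR-9429 replicate 1, PKP3 (0.0724) and TCHP (0.159) were lost, and without its replicate 2 PKP2 (0.0656), PKP3 (0.0721) and TCHP (0.0829). Without OICR-9429 replicate 3, PKP2 (0.0776) and PKP3 (0.0684) were lost. A minimum mean count of 50 ended the calls of PKP3 (0.0568) and TCHP (0.0722), and TCHP was also lost with DESeq2 size factors (0.0538) and with no filter (0.0618).

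Of 13 other intermediate filament genes 9 had a region. Of these, 3 passed as higher and 0 as lower, and their median log2 change was 0.29. Both the share called higher and the median were below those of all protein-coding genes, 51.4% and 0.37. VIM, the mesenchymal filament gene vimentin, rose from 87.1 ± 10.7 to 120 ± 10.9 normalised CPM (log2 change 0.46, adjusted p = 0.0144, edgeR). LMNA, which codes for the nuclear lamins A and C, rose from 319 ± 40.0 to 501 ± 48.5 (0.65, SE 0.12, adjusted p = 0.00228), with the same call in all 13 alternatives. LMNB1, of lamin B1, rose from 66.8 to 89.2 (0.42, adjusted p = 0.0202). The calls of VIM and LMNB1 were lost with loess offsets (adjusted p = 0.209 and 0.400) and without DMSO replicate 1 (0.0790 and 0.115) or DMSO replicate 2 (0.0865 and 0.117), and that of LMNB1 without OICR-9429 replicate 1 (0.0502). The difference between any of these genes and the keratins was not tested.

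**Figure D4:**
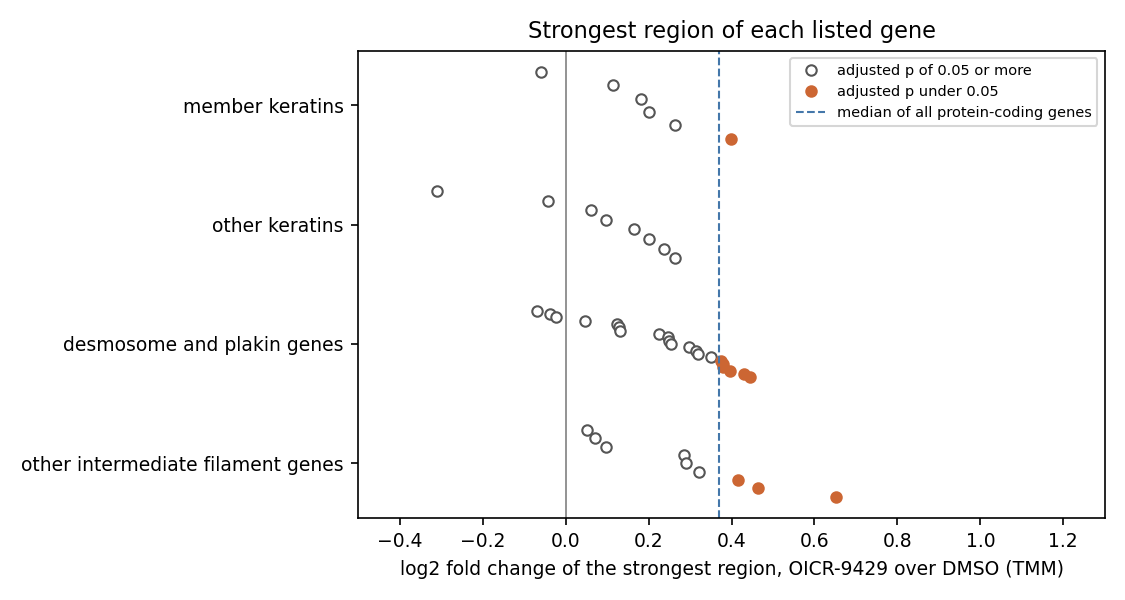
The log2 fold change (x axis) of each gene's strongest region for the keratins described here, other keratins, desmosome and plakin genes and other intermediate filament genes (rows), with filled points for an adjusted p under 0.05 and each region drawn once per list. The dashed line is the median of all protein-coding genes, 0.37, and most keratin points lie to its left. Under TMM the median differed with read count, at 0.03 over all tested regions and 0.37 in the highest decile of mean count. The tested regions of the other keratins lay below that decile, so the line is not matched to them in read count.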

How the data were processed

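H3K4me2 ChIP was measured in 6 MDA-MB-231 libraries, 3 given DMSO and 3 OICR-9429, grouped by the labels. The authors deposited raw read counts per region over 1 common set of regions, not normalised. Per the submitters' processing notes, Bowtie, MACS2, deepTools, featureCounts and DESeq2 were used with the builds hg38 and dm6. The sources used here name no versions or settings. Regions not called by the authors have no count, and spike-in factors were not used.

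The test was edgeR's robust quasi-likelihood fit (edgeR 4.0.16, R 4.3.3) after filterByExpr, with TMM factors and no covariate. P-values were adjusted by Benjamini-Hochberg over 51156 regions, with a threshold of 0.05. The standard error is the size of the log2 change divided by the square root of F. Over 99% of counts, 16483098 to 23509413 per library, lay in tested regions. Gene spans and promoter windows came from RefSeq tables of GRCh38.p14. The spans carry no strand or exons. Gene sums used the library sizes and TMM factors of the regions.

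All members are named. Of each other list the called genes are named where they are 5 or fewer, otherwise the 4 with the smallest p, plus KRT6A, KRT16, KRT83, KRT86 and VIM. Regions near but outside the members were named after their values were seen. The members, lists and tests were chosen with earlier results of these data known.

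TMM was replaced in turn by library totals, by size factors of DESeq2 and by loess offsets (limma 3.58.1, span 0.3). The filter was dropped or set to a mean count of 50. Each library was left out once, the Wald test of DESeq2 1.42.0 was run, the replicate number entered as a block, and the distance rule was changed. The scripts were tested on simulated data.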

Additional observations from a re-analysis of the deposited data

How the results depend on the processing

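The KRT81 span region kept its call under all 13 alternatives. The KRT19/KRT15 region kept its direction under all 13 and lost its call in 6. With library totals, 3301 regions were higher and 11984 lower, 1 member region was higher and 2 lower, gene sums gave 2547 and 1205, 1 other keratin was lower and 1 desmosome gene higher. With loess offsets, 2761 regions were higher and 4445 lower, 1 member region was higher and 1 lower, gene sums gave 745 and 1456, desmosome genes 0 and 1, and other intermediate filament genes 1 and 1. DESeq2 size factors gave 3 desmosome genes higher, no filter gave 3, and the minimum mean count of 50 gave 2, with 5073 regions higher in all. The gene lists use each gene's strongest region, and the share of all genes by that measure was taken only with the settings of the main test. The members' median percentile of 35.6 became 88.65 when levels were not per kb.

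Leaving out 1 library at a time gave 1104 to 12192 regions higher and 4096 to 8234 lower, 1 to 3 member regions higher and 0 lower, gene sums of 0 to 10607 higher and 3 to 573 lower, 0 to 11 desmosome genes and 1 to 5 other intermediate filament genes higher, and 0 to 1 other keratins lower. For the lists, no share of all genes by strongest region was taken with a library left out. The 0 among gene sums came without DMSO replicate 2. There edgeR had 4427 gene sums higher and 761 lower at an unadjusted p under 0.05. The cause was not tested.

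The sign turned with library totals for the lower KRT7 (-0.0831), inner KRT7 (-0.0779), middle KRT8 (-0.0531), KRT8/KRT18 (-0.0134), KRT16 (-0.14) and KRT86/KRT83 (-0.000522) regions and the sums of KRT7 (-0.0815), KRT8 (-0.0157) and KRT18 (-0.0132). With loess offsets it turned for the lower KRT7 (-0.22), inner KRT7 (-0.20), KRT81 flank (-0.0225), lower KRT8 (-0.14), middle KRT8 (-0.16), KRT8/KRT18 (-0.15) and KRT10 (-0.00991) regions and the sums of KRT7 (-0.18), KRT8 (-0.0839) and KRT18 (-0.13). KRT16 was -0.0104 with no filter and -0.0428 with the minimum mean count. With libraries left out in turn, the KRT80 broad region ranged from -0.18 to 0.0239, the lower KRT7 region from -0.0269 to 0.22, the KRT7 sum from -0.00188 to 0.18 and KRT16 from -0.14 to 0.13. The cause was not tested.

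Deviations of same-numbered libraries from their group means correlated at -0.19, 0.21 and -0.22. DMSO replicate 3 and OICR-9429 replicate 1 correlated at 0.36. With 3 libraries per group such deviations depend on each other, so they cannot show whether the replicate numbers pair the libraries. With the number as a replicate block, 6333 regions were higher and 5826 lower, 2 member regions higher and 0 lower, gene sums 5550 and 292, and 3 desmosome genes higher. TCHP lost its call (adjusted p = 0.0571). The inner KRT80 regions held 9 to 23 counts per library and had the largest standard errors among the members.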
